A study of Mus musculus with 2 samples.

Results

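The epidermal kallikreins are the 10 genes Klk5 to Klk14 of the mouse kallikrein cluster on chromosome 7. They were taken as the probe sets that the platform annotation maps to exactly 1 symbol, that symbol being one of the 10. Each of the 10 had 1 such probe set, out of 22180 genes with a probe set of 1 symbol. RNA came from a three-dimensional skin model of an Itih5 knockout mouse (genotype label Itih5 knockout) and from one of a wildtype control, both titled as day 7 and both built from skin fibroblasts and keratinocytes of adult, untreated mice. Each model was hybridised to 1 array, so each group has 1 sample, the differences carry no replicate error and no p-value is given. The keratinocytes and fibroblasts had been passaged repeatedly in culture, per the labels. The age in weeks, the background strain, the part of Itih5 that was removed and the number of animals behind each model are not stated in the labels. The comparison addresses how expression differs between the models in a study of ITIH5 as a stabilizer of hyaluronan in skin.

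Kallikreins are secreted serine proteases of the trypsin and chymotrypsin fold, made as inactive precursors. In the epidermis, granular keratinocytes package them into lamellar granules and release them below the horny layer. There they activate one another in a cascade and cleave the corneodesmosome proteins that hold corneocytes together, so that the outer cells can be shed, and the inhibitor LEKTI, the product of Spink5, restrains them. The 10 genes were selected on earlier results from the same knockout and wildtype intensities, so the values below describe these 2 arrays and support nothing further.

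Of the 10 kallikreins, 9 had a settled value on both arrays, and these 9 read lower in the knockout model. The tenth, Klk7, had an undecided level and a likeliest difference of -0.09, close to no difference. The differences, given throughout as log2 intensity of the knockout minus the wildtype model, ran from -5.18 for Klk14 to -0.79 for Klk5, with a median of -3.72 (13.1-fold) over the 9 and of -3.43 with Klk7 at its likeliest place. Of the 9, 8 were at least 2-fold lower, and 0 were higher by that factor. Of all 12695 expressed genes, 3.29% passed 2-fold downward and 3.84% upward, with a median difference of 0.04. Genes were taken as expressed where at least 1 array reached an intensity of 46.6, the median level of all restored probe sets.

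The intensities were deposited almost entirely without their decimal point, and how far a value can be trusted depends on how many places the point could have had. For Klk5, Klk8, Klk10, Klk11, Klk12, Klk13 and Klk14 only 1 place was possible on each array. For Klk9 and Klk6 several were, with a probability of 0.99 and 0.97 for the place used. For Klk7 the level stayed undecided. These probabilities were learnt from all probe sets on the arrays, most of which differed little, with 80.1% of expressed genes within 1.5-fold.

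**Figure D1:**
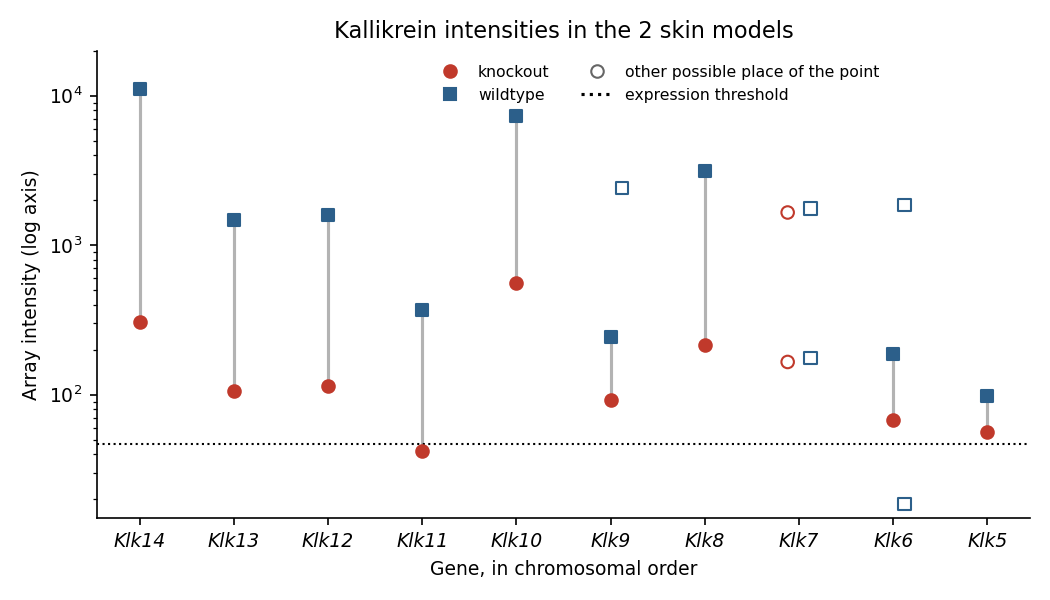
Array intensity (log axis) of the 10 kallikreins in the knockout model (circles) and the wildtype model (squares), 1 array each, with genes in chromosomal order; open symbols mark other possible places of the decimal point, and the dotted line marks the expression threshold of 46.6. The wildtype value lies above the knockout value for all 9 kallikreins with a settled value, from 11121 against 307 for Klk14 to 97.5 against 56.6 for Klk5, and Klk7 has open symbols only.

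Klk14 and Klk5, which both encode trypsin-like proteases, stood at opposite ends of the order of settled kallikreins. Klk14, whose product is one of the main trypsin-like activities of the horny layer, read 307 in the knockout against 11121 in the wildtype model, 36.2-fold lower. Its difference of -5.18 was the second lowest of all expressed genes, after that of Lce3e, a late cornified envelope gene with 151 against 6899 (-5.51), and before that of Rptn, the repetin gene, with 58.6 against 1743 (-4.89). Klk5, whose product activates itself and then other kallikreins, read 56.6 in the knockout against 97.5 in the wildtype model. That is a difference of -0.79, under 2-fold. The knockout intensity lay close to the expression threshold of 46.6, and the wildtype intensity lay further above it.

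The Klk14 value depends on the lowest intensity allowed. Among 49856 values with 1 possible place between 10 and 65000, the lowest was 18.3, and the range was therefore set to start at 18. If intensities down to 10 were allowed, the wildtype value of Klk14 could also be 11.1, below every one of those values, and the knockout model would then read higher by 4.79 with a probability of 0.81. Under that range the gene counted as undecided. Klk14 was the 1 kallikrein with a settled value that lost it there.

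Klk7, the chymotrypsin-like protease that degrades corneodesmosin and desmocollin 1, had no settled level. Its knockout intensity was 166 or 1655 and its wildtype intensity 176 or 1764. The pair 166 and 176 had a probability of 0.88, and the pair 1655 and 1764 one of 0.12. Both give the same difference of -0.09, and together they reached 0.99, so that the likeliest reading is one of nearly equal intensities at a level that is not known. The pair 166 against 1764, which would place Klk7 with the strongly lower kallikreins at -3.41, had 0.004, and the reverse pair 0.006. Possible places differ by a factor of 10, so a difference near that size can look like none where both arrays have several. Since a pair of places was needed at 0.95, Klk7 is left out of the counts over settled kallikreins.

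Klk8, Klk10, Klk12 and Klk13 read lower by nearly the same factor. Klk8 encodes neuropsin, a trypsin-like protease of the upper epidermis, and read 216 in the knockout against 3152 in the wildtype model, a difference of -3.86 (14.6-fold). Klk13 read 106 against 1480, with a difference of -3.81 (14.01-fold). Klk12 read 115 against 1597, with a difference of -3.80 (13.9-fold). Klk10, whose product is a kallikrein with little known proteolytic activity, read 558 against 7332, with a difference of -3.72 (13.1-fold). These differences lie within 0.15 log2 of each other, and with 1 array per model there is no spread by which to tell neighbours in this order apart.

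Klk11, a trypsin-like kallikrein, read 42.1 in the knockout against 370 in the wildtype model. The knockout value lay below the expression threshold, where the background adds to the reading, so the difference of -3.14 depends on that background. With 16 added to both intensities it was -2.73. Klk11 was the 1 kallikrein below the threshold on an array.

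Klk9 and Klk6 read moderately lower at the places used. Klk9 read 92.6 in the knockout against 241 in the wildtype model, a difference of -1.38 (2.61-fold). The other possible wildtype value was 2413, which would make it 26.1-fold lower. Klk6, a trypsin-like protease also known from the nervous system, read 67.7 against 186, a difference of -1.46 (2.75-fold). Its other possible wildtype values were 1858, a difference of -4.78, with a probability of 0.033, and 18.6, a difference of 1.86, with 0.001. For Klk9 both possible places leave the knockout model lower by more than 2-fold. Without Klk6 and Klk9, the 7 kallikreins with 1 possible place had a median of -3.80, and 6 of them were at least 2-fold lower.

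**Figure D2:**
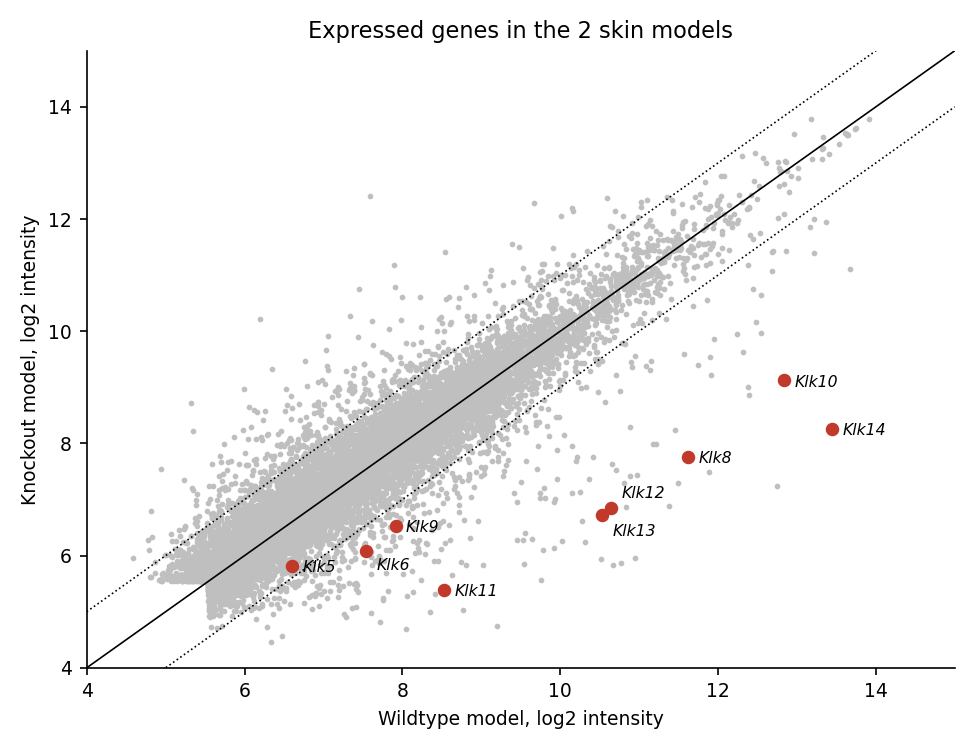
Log2 intensity in the knockout model against the wildtype model for 12695 expressed genes (grey), with the 9 kallikreins that have a settled value in red; the solid line marks equal values and the dotted lines 2-fold. Klk14, Klk8, Klk13, Klk12, Klk10 and Klk11 lie among the 46 genes at least 8-fold lower (Klk11 with a knockout value below the threshold), and Klk5 lies inside the 2-fold lines.

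Differences of at least 8-fold were uncommon among settled expressed genes and mostly went down. Undecided genes are left out of this. With every gene at its likeliest place, 602 of 13513 expressed genes read at least 2-fold lower and 668 higher. With settled genes only, these were 418 and 487 of 12695. Of the settled expressed genes, 46 read at least 8-fold lower, 5 were higher by that factor, and 6 of those 46 were kallikreins. One of the 6, Klk11, had a knockout value below the threshold and was under 8-fold with 16 added to both intensities. Ranked from the lowest difference, Klk14 was at place 2, Klk8 at 14, Klk13 at 15, Klk12 at 16, Klk10 at 20 and Klk11 at 40. Klk6 was at 212, Klk9 at 235 and Klk5 at 653. Next to Klk8 in this order were Klk13 and Scel, the gene of the cornified envelope protein sciellin, which read 117 against 1824 (-3.97).

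The expressed genes on either side of the block of 10 were under 2-fold apart, as were most expressed genes on the arrays. In the RefSeq gene table (GRCm38.p6) the 10 are direct neighbours among protein-coding genes, in the order Klk14, Klk13, Klk12, Klk11, Klk10, Klk9, Klk8, Klk7, Klk6 and Klk5, and Klk4 and Klk15 follow Klk5. Klk4, an enamel protease, read 87.4 in the knockout against 90.5 in the wildtype model, a difference of -0.05 with 1 possible place. Klk15 read 30.5 against 30.2, below the threshold in both. On the other side of the block, Ctu1, a tRNA thiolation gene, read 73.8 against 82.6, a difference of -0.16.

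Of the 10 nearest protein-coding genes before Klk14, 5 were expressed, and of the 10 after Klk5, 2 were expressed. Of these 7 genes 0 were at least 2-fold apart. Over all expressed genes 3.29% read at least 2-fold lower and 3.84% higher, so 0 of 7 is close to those shares. Beyond Klk15 lies the Klk1 family of glandular kallikreins, whose members are near copies of each other, so that a probe set may read several of them. Of 13 other kallikreins with a probe set of 1 symbol, 10 were below the threshold in both models. The 3 expressed ones were Klk4, Klk1b11 with 61.2 against 62.4, and Klk1b24 with 61.8 in the knockout and 41.0, below the threshold, in the wildtype model. Their median difference was -0.03.

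**Figure D3:**
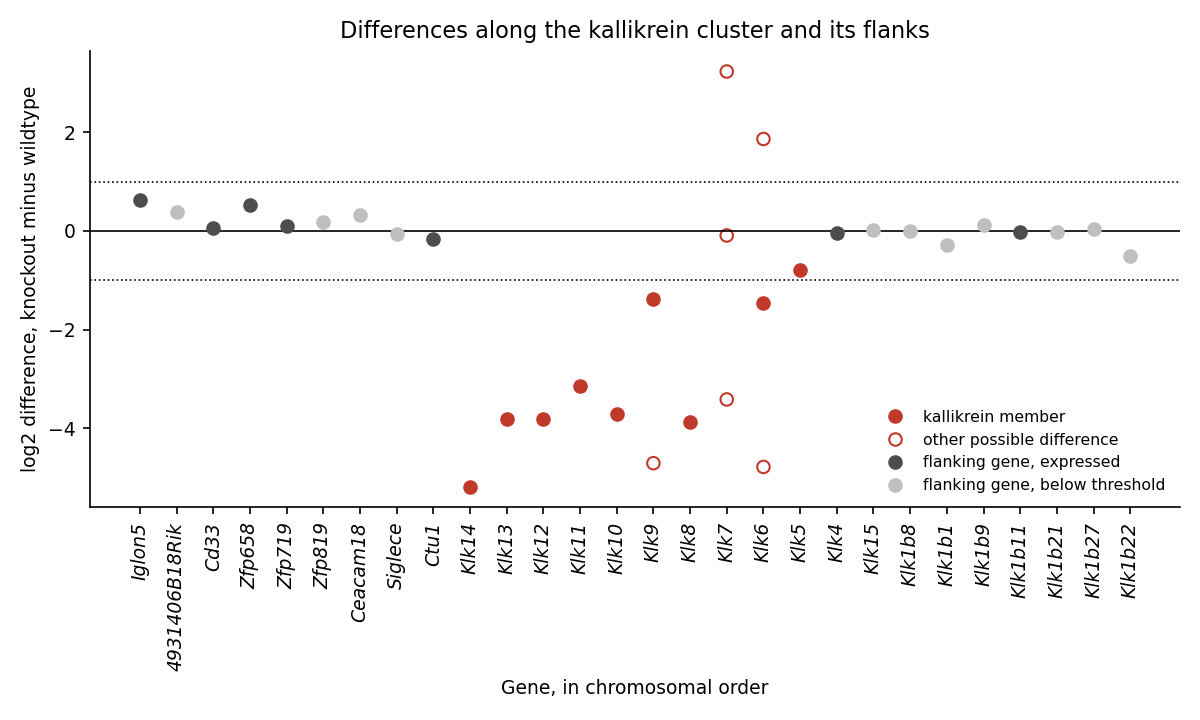
Log2 difference (knockout minus wildtype) of the 10 kallikreins (red) and of flanking protein-coding genes with a probe set (dark grey, expressed; light grey, below the threshold) in chromosomal order; open red circles are other possible differences, and dotted lines mark 2-fold. Settled kallikreins run from -5.18 at Klk14 to -0.79 at Klk5, while Ctu1 (-0.16) and Klk4 (-0.05), on either side of the block, lie close to 0.

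The sequence before the start site is shown for 5 of the kallikreins. Klk14, Klk8, Klk13 and Klk10 are from the strongly lower genes, and Klk5 is the least lower of the settled ones. Each line holds the 250 bases before the RefSeq start, from RefSeq's GRCm38.p6 assembly, 5′ to 3′ on the strand of the gene. Capitals mark the Kruppel-like motif CCACCC or its complement GGGTGG.
Klk14 (chr7:43690168-43690417, + strand): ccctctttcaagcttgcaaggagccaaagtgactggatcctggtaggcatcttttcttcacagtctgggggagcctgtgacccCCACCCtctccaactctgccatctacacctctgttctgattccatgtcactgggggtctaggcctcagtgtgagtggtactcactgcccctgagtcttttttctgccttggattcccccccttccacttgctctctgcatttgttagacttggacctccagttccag
Klk8 (chr7:43797327-43797576, + strand): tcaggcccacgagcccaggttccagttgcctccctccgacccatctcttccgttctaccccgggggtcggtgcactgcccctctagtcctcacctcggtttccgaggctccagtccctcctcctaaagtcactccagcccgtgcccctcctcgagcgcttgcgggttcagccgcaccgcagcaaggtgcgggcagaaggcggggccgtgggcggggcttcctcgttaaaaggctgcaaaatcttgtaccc
Klk13 (chr7:43712317-43712566, + strand): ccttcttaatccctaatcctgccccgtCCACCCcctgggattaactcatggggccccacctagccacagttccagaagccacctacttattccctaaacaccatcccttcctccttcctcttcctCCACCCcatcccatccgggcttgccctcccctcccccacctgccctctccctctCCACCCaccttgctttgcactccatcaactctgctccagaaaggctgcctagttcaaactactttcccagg
Klk10 (chr7:43780804-43781053, + strand): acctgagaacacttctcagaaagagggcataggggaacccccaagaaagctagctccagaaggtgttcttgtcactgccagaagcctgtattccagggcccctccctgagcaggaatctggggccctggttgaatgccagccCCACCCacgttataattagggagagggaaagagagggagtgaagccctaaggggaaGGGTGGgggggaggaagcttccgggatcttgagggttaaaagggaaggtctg
Klk5 (chr7:43842019-43842268, + strand): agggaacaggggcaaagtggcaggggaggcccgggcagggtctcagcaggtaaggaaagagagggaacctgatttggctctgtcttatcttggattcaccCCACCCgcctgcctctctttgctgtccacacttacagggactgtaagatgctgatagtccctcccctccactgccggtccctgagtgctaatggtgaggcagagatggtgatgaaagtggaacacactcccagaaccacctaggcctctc

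All 10 kallikreins had such a window, and Klk6 and Klk11 had 2 each, which made 12 windows. Motifs were searched on both strands in these and in the 32851 windows of all genes in the table. CCACCC, the core bound by Kruppel-like factors, was in 8 of the 12 windows, of the 8 genes Klk5, Klk7, Klk9, Klk10, Klk11, Klk12, Klk13 and Klk14, against 28.1% of all windows. The 12 windows are few and come from neighbouring genes, and the count was not tested against that share. Matches stood before Klk5 (-0.79) and Klk7 (-0.09 at its likeliest place), while the Klk8 (-3.86) window held no match to these letters. Other forms of Kruppel-like site were not searched. Klf4, a Kruppel-like factor gene of the differentiating epidermis, read 284 in the knockout against 1062 in the wildtype model, a difference of -1.90, and its part in the kallikrein readings was not tested.

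Each of the other motifs was in at most 2 of the 12 kallikrein windows. The C/EBP motif TTGCNNAA was in both Klk11 windows (9.56% of all windows) and the ETS motif GGAAGT in 1 Klk6 window (19.7%). The TATA box TATAAA (12.4%), the AP-1 motif TGANTCA (6.75%), the Grainyhead motif AACNGGTT (1.79%) and the nuclear receptor motif AGGTCA (14%) were in 0 of the 12. With so few windows, a count of 0 cannot be told from shares of this size. No match in these windows overlapped a match of another motif, and a match is a description of the letters only. The kallikrein windows held a median of 3 CpG pairs against 6 over all windows, from 0 before Klk14 to 18 before Klk8. Their median GC content was 55.8% against 52.4%.

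Genes whose products may act on kallikrein proteins or be cleaved by them were read from lists of inhibitors, activating proteases, substrates and receptors, chosen for their roles. Among 11 expressed inhibitor genes, 4 read lower by 2-fold or more, 0 were higher by that factor, and the median was -0.75. Over all expressed genes the shares were 3.29% lower and 3.84% higher by that factor. Spink5, which encodes LEKTI, the inhibitor of KLK5, KLK7 and KLK14, read 599 against 3838, a difference of -2.68 (6.41-fold). Wfdc5, a whey acidic protein family inhibitor gene, read 138 against 858 (-2.64). Spink12, another Kazal-type inhibitor gene, read 23.8 in the knockout, below the threshold, and 88.7 in the wildtype model. Spint1, whose product inhibits matriptase and prostasin, read 272 against 634 (-1.22). Slpi, the secretory leukocyte protease inhibitor gene, read 4138 against 6942 and Serpina3n, a serpin of chymotrypsin-like proteases, 14058 against 9283, both under 2-fold. Of the genes of these LEKTI targets, Klk14 (-5.18) had a lower difference than Spink5. Klk5 (-0.79) and Klk7 (-0.09 at its likeliest place) were less lower than Spink5, as were Klk6 (-1.46) and Klk9 (-1.38). The remaining kallikreins, from Klk8 (-3.86) to Klk11 (-3.14), had lower differences than Spink5.

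The list of activating proteases holds known and possible activators of kallikreins. It had 5 of 11 expressed genes lower by 2-fold or more, 6 under 2-fold and 0 higher by that factor. The median was -0.54, and over all expressed genes 3.29% passed 2-fold downward and 3.84% upward. Tmprss11d, one of the 6 under 2-fold, read 2801 against 2250. Prss8, which encodes the membrane-anchored protease prostasin, read 197 against 1610 (-3.03, 8.15-fold). St14, which encodes matriptase, an activator of pro-kallikreins, read 590 against 855 (-0.54), under 2-fold. Tmprss11a read 47.4 against 868 (-4.20), Tmprss11g 748 against 3803 (-2.35) and Tmprss11f 70.7 against 294 (-2.06), all transmembrane serine protease genes. The undecided genes Tmprss11b, Tmprss11e, Plau and Prss27 are in none of these counts. At their likeliest places Tmprss11b (1.44), Plau (1.01) and Prss27 (1.17) would read higher by at least 2-fold and Tmprss11e (-1.55) lower. With 1 possible place only, the median of the list was -1.68. The meprin metalloprotease genes Mep1a and Mep1b and the plasminogen gene Plg were below the threshold in both models.

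The expressed genes of kallikrein substrates in the corneodesmosome also read lower. Cdsn, the corneodesmosin gene, read 463 against 5389 (-3.54, 11.6-fold), close to the values of the strongly lower kallikreins. The desmoglein gene Dsg1a read 78.5 against 802 (-3.35) and Dsg1b 218 against 1183 (-2.44), while Dsc1, the desmocollin cut by KLK7, read 546 against 1200 (-1.14). In all, 4 of 7 expressed substrates read at least 2-fold lower, 0 were higher by that factor, and the median was -1.14. Over all expressed genes the shares were 3.29% lower and 3.84% higher. Cdh1, the E-cadherin gene, with 725 against 1428, Flg, the filaggrin gene, with 38.9 against 55.7, and Smpd1, an acid sphingomyelinase gene, with 751 against 881, were under 2-fold. Camp, the cathelicidin gene, and Il1b were below the threshold in both models.

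Of the protease-activated receptors, F2rl2 read 48.9 against 50.2 and F2rl3 45.3 against 47.9, close to the threshold. F2r was undecided, and F2rl1, the receptor that KLK5 and KLK14 cleave, had no probe set with 1 symbol and was not analysed here.

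**Figure D4:**
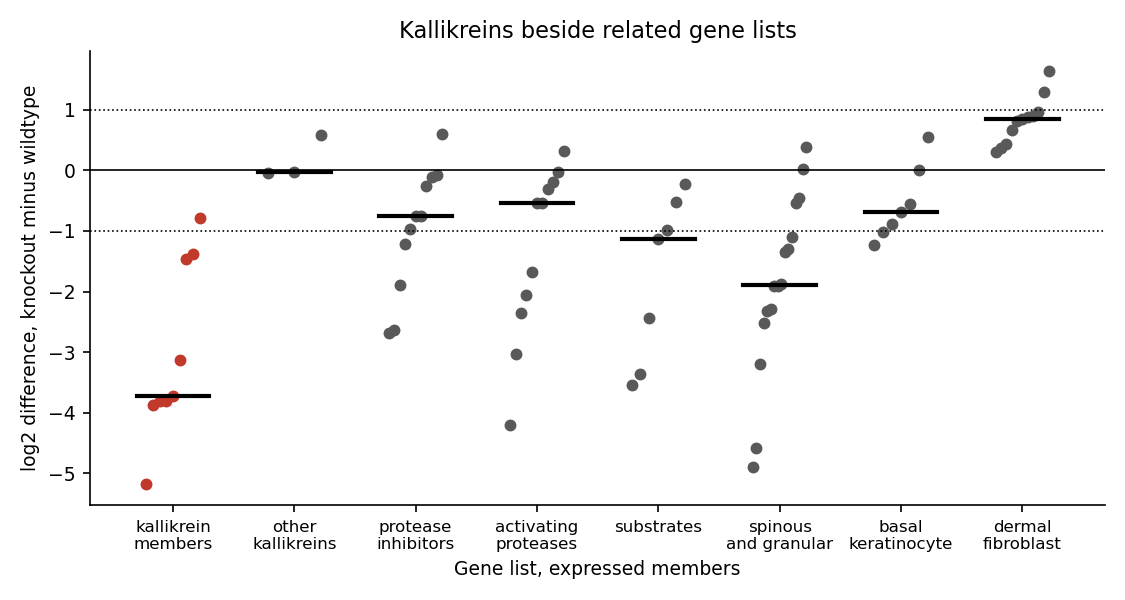
Log2 difference (knockout minus wildtype) of each expressed gene of 8 lists, 1 point per gene, with the median as a bar; dotted lines mark 2-fold. The kallikrein median of -3.72 is the lowest of the 8, followed by spinous and granular genes (-1.89) and substrates (-1.14), and the dermal fibroblast list has the highest median (0.84).

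Both models carried the marker genes of their labelled cells. Krt14, the basal keratin, read 4076 in the knockout against 9538 in the wildtype model, and Vim, the vimentin gene of mesenchymal cells, 6479 against 3666. Markers of the late keratinocyte layers moved with the kallikreins, with 12 of 16 expressed spinous and granular genes at least 2-fold lower, 0 higher by that factor and a median of -1.89. Rptn, Calm4 (-4.58) and Lor, the loricrin gene (-3.19), were the lowest of them. Hrnr, another of the 12, read 31.2 in the knockout, below the threshold, against 153 in the wildtype model. It therefore counted as expressed through the wildtype array only. Ivl, the involucrin gene, read 143 against 141, and Krt1 39.8, below the threshold, against 54.7. The summed intensity of the restored spinous and granular markers was 3759 in the knockout against 15398 in the wildtype model. Basal keratinocyte markers had a median of -0.69, with 2 of 7 at least 2-fold lower and a summed intensity of 7172 against 13998. Dermal fibroblast markers had a median of 0.84, with 2 of 11 at least 2-fold higher and a summed intensity of 14686 against 8116. Beside these counts, 3.29% of all expressed genes read at least 2-fold lower and 3.84% higher. The part of keratinocyte share and layering in the kallikrein readings was not tested, and in RNA of a whole model fewer cells of a type and less RNA per cell cannot be told apart.

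Other cell types were present weakly or in part. Of the leukocyte markers, Cd207, Itgam, Cd3e and 4 others were below the threshold in both models, as were the adipocyte genes Adipoq and Lep and the endothelial genes Pecam1 and Cdh5. The expressed members of these lists included Cd68, a macrophage and lysosome gene, with 861 against 1161, and Kdr, a VEGF receptor gene, with 87.4 in the knockout and 36.1, below the threshold, in the wildtype model. Of the melanocyte markers, Tyr, Dct and Tyrp1 were below it, whereas Mlana read 705 against 109. Fabp4, on the adipocyte list, read 4974 against 816. Summed intensities were 1148 against 1459 for leukocyte, 1429 against 592 for melanocyte, 306 against 270 for endothelial and 5645 against 1362 for adipocyte markers. The Schwann cell markers summed to 154 against 214 and the sebocyte and sweat gland markers to 871 against 809, with medians of -0.55 and -0.01. Itih5 itself read 30.4 in the knockout against 29.8 in the wildtype model, below the threshold in both, so this probe set checks neither label.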

How the data were processed

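RNA of 2 skin models, 1 per genotype, was measured on 1 array each. The authors deposited 1 intensity per probe set on a linear scale; the scanner software, the probe set summary and the normalization are named in none of the sources used here. Of 67586 deposited values, 67457 had lost their decimal point. A place was possible if it gave at least 3 decimals, lay between 18 and 20000, was the shortest form of a single-precision number and had a log2 value that single precision can hold. Pairs of places were weighted by the joint distribution of level and difference over all probe sets (25 rounds of expectation maximisation), and pairs reaching a probability of 0.95 were accepted: 31857 of 33793 probe sets (94.3%), with 44.5 expected to be misplaced. The design had assumed values that needed no such step.

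Of 23521 probe sets with 1 symbol, 23328 were matched by Entrez identifier to a RefSeq table. The probe set with the highest mean stood for a gene. Differences are of log2 intensity with no pseudocount. Column medians were 46.2 and 46.7, and no normalization was added. Array number limits the precision. The members, lists and settings were chosen with earlier results of these data known. Named genes are the 10 kallikreins, the largest differences and functional partners within each list, cluster neighbours, and genes next in order to the lowest kallikreins; the cell type markers named beyond these were chosen after their values were seen. Python 3.11.15, NumPy 2.4.6 and pandas 2.3.3 were used.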

Additional observations from a re-analysis of the deposited data

How the results depend on the processing

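Kallikreins at least 2-fold lower numbered 6 to 8 under the settings that kept 2-fold. Among the kallikreins counted under each setting, 0 were higher. At 1.5-fold there were 9 and at 3-fold 6. Their median was -3.43 with every gene at its likeliest place, which adds Klk7 at -0.09, and -3.43 with intensities from 10 to 65000, which leaves out Klk14; elsewhere it ran from -3.80 to -3.62. Of 95 kallikrein differences under alternatives, 0 reversed and 1 moved by over 0.26, the median absolute difference of expressed genes, namely Klk11 with the pseudocount of 16. These 95 do not include Klk14 with intensities from 10 to 65000, where it was undecided. Its likeliest place there reads higher in the knockout model by 4.79 (probability 0.81), a reversal that the count of 0 leaves out. Over all genes, 1053 were lower and 1478 higher at 1.5-fold, 179 and 131 at 3-fold, and 312 higher with 1 possible place only, where fewer genes were tested. With every likeliest place 602 were lower and 668 higher. With 1 possible place only, the substrate median was -1.48. Of 150 list medians 21 moved, and of 364 list counts 23 did. The alternative with no minimum of 3 decimals was chosen after seeing the data. No paired analysis was possible because there is 1 array per genotype, and none could be left out. Intensities close to the 5th percentile of 21.4 are mostly background, which shrinks differences.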
